A study of Homo sapiens with 6 samples.

Results

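The genes examined encode the machinery that holds, checks and separates chromosomes in mitosis: the kinetochore, the spindle assembly checkpoint, the mitotic kinases, condensin and the proteins of anaphase and cytokinesis. They were 53 genes, listed by name and role, and each probe set that the array's platform table maps to 1 of these symbols alone was used. All 53 had at least 1 such probe set, 101 probe sets in all, of 19775 genes and 41091 single-symbol probe sets on the array. CENPJ is listed by RefSeq as CPAP, and 1 further probe set that lists CENPA together with a second gene was left out.

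The series compared cybrids, cells made by fusing an enucleated mitochondrial donor with a recipient that lacks mitochondrial DNA. The 3 arrays of 10A/143B carried mitochondria of MCF10A, a non-cancerous breast epithelial line, and the 3 arrays of 468/143B those of MDA-MB-468, a metastatic breast cancer line. Nuclei of both groups came from 143B ρ0 osteosarcoma cells, deficient in thymidine kinase, and both cybrids had been selected in bromodeoxyuridine without uridine, after donor cells had been treated with actinomycin-D. The labels' cell line field names the mitochondrial donor, not the cell hybridised, and does not say whether a cybrid was 1 clone or a pool, so that any difference between 2 fused lines, of the nucleus too, cannot be told apart from one between mitochondria.

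At mitosis the kinetochore is built on centromeric chromatin that contains the histone CENPA: an inner layer binds the centromere and an outer layer, led by the NDC80 complex, grips microtubules. Kinetochores without microtubules recruit checkpoint proteins that hold back CDC20 and with it the anaphase-promoting complex, until securin is destroyed and separase can open cohesin. Polo-like and Aurora kinases drive these steps, condensin compacts the chromosomes, and their genes are mostly transcribed late in the cell cycle, so that such mRNAs also follow the share of dividing cells in a culture. On RNA of whole cultures, more cells in mitosis and more RNA per cell cannot be told apart.

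Replicate 1 stood apart from replicates 2 and 3 in both groups. Where the mean log2 level exceeded 8, the SD of log2 differences between replicates 2 and 3 was 0.079 for 10A/143B and 0.092 for 468/143B, and between replicate 1 and either of them it was 0.26 to 0.29. Replicates 2 and 3 were therefore averaged to 1 sample, which left 2 samples per group, and nothing in the labels says whether extracts came from separate cultures, so p-values measure only the spread between these samples. Mean intensities in 10A/143B and 468/143B were 8687 and 8418 for VIM, a mesenchymal marker, 514 and 605 for RUNX2, an osteoblast marker, and 55.3 and 36.8 for the epithelial EPCAM. The epithelial CDH1, KRT5 and KRT14 had group means between 1 and 16.5, below the arrays' median intensities. The keratins KRT8 (-1.09 ± 0.19 on the log2 scale, adjusted p = 0.00759) and KRT18 (-0.33 ± 0.09, adjusted p = 0.0459) were lower in 10A/143B. Both were far above the median intensities in both groups, with means in 10A/143B and 468/143B of 206 and 439 for KRT8 and 4908 and 6198 for KRT18. Epithelial markers were thus not all dim. ACTB's 3′ probe set over its 5′ one, a measure that rises as RNA degrades, gave 1.92, 1.74 and 1.59 in 10A/143B and 1.18, 1.65 and 1.67 in 468/143B. The same measure of GAPDH gave 1.01, 0.973 and 0.933 in 10A/143B and 0.966, 1.06 and 1.07 in 468/143B. Their part in the results was not tested.

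Mitotic genes were more often higher than lower in 10A/143B. Of the 53 genes, 23 (43.4%) were called higher and 2 (3.77%) lower by limma at an adjusted p of 0.05, and the median log2 difference over all 53 was 0.30. Over all 19775 genes, 12.4% were called higher and 7.48% lower (19.9% in either direction), with a median of -0.02. The split of all genes moved with scaling; it was 2450 higher and 1479 lower as deposited, 2106 higher and 2034 lower after quantile normalization, and 2130 higher and 1915 lower after median centring. Among the 9201 genes whose mean level reached that of the dimmest mitotic gene, 23.6% were called higher and 15.1% lower. The counts of each role below stand beside these shares. At least 2-fold differences were called for 15 of the 53 genes, against 9.62% of all genes. That share was not counted among the 9201 genes alone, where calls were more frequent, so how far the 15 exceed genes of like level is not known. The 2 genes that were lower were the kinase PLK1 and the checkpoint gene MAD1L1.

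All differences are 10A/143B minus 468/143B on the scale log2(intensity + 16), each ± its standard error (SE), and every adjusted p is limma's with Benjamini-Hochberg adjustment over 54613 probe sets. Intensities are the authors' linear values and are listed for replicates 1, 2 and 3 in that order. Because 16 is added, folds of dim genes are understated, and levels of different genes cannot be compared on this array.

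**Figure D1:**
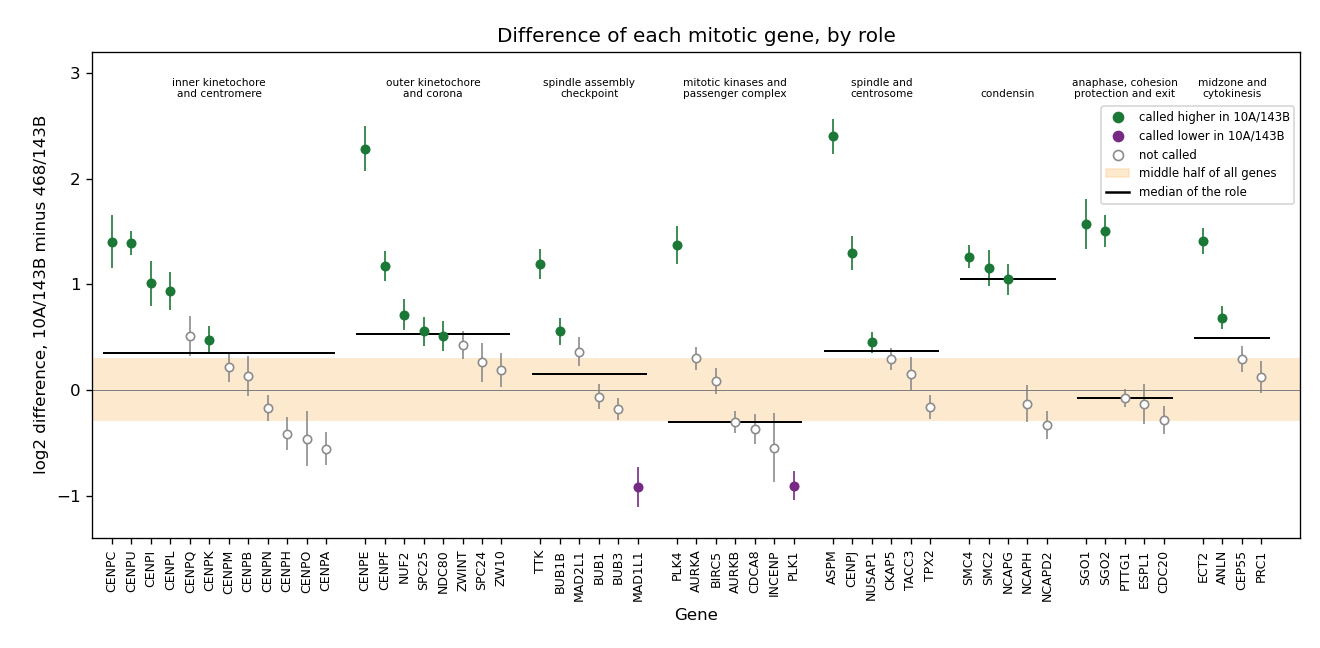
Log2 difference (10A/143B minus 468/143B) of each of the 53 genes by role, with bars of 1 SE; filled green points were called higher, filled purple points lower and open points were not called. The shaded band runs between the quartiles of all genes (-0.30 and 0.30), and black lines are the medians of each role, from -0.30 for the kinases and passenger complex to 1.05 for condensin.

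Whether the calls rest on single arrays was examined by leaving out each in turn. Without replicate 1 of 10A/143B, 9 genes were called higher and 0 lower (6 lower at an unadjusted p of 0.05), against 3.69% and 1.83% of all genes. Without replicate 1 of 468/143B, 11 were called higher and 0 lower (2 lower at an unadjusted p of 0.05), against 4.6% and 1.52% of all genes. Leaving out a replicate 1 leaves 1 sample in that group, which limma assumes to vary like the other group. Calls of 8 genes held whichever of the 6 arrays was left out: CENPU, CENPE, TTK, ASPM, CENPJ, SMC4, SGO2 and ECT2. A further 15 lost the call only without replicate 1 of one or both groups, CENPK lost it also without replicate 3 of 468/143B, and NDC80 lost it whichever array was left out. The replicate 1 arrays alone and replicates 2 and 3 alone gave the same sign for 51 of 53 genes, among them all 25 called, with medians of 0.33 and 0.39. The 3 arrays of 10A/143B did not overlap those of 468/143B for 42 genes, 32 of them higher and 10 lower, against 24.2% and 21.6% of all genes (45.8% in either direction). With the 6 arrays counted as separate samples, 29 genes were called higher and 6 lower, against 19.1% and 14.8% of all genes (33.9% in either direction). The replicate number as a block gave 25 higher and 3 lower, against 15.6% and 11.4% of all genes.

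**Figure D2:**
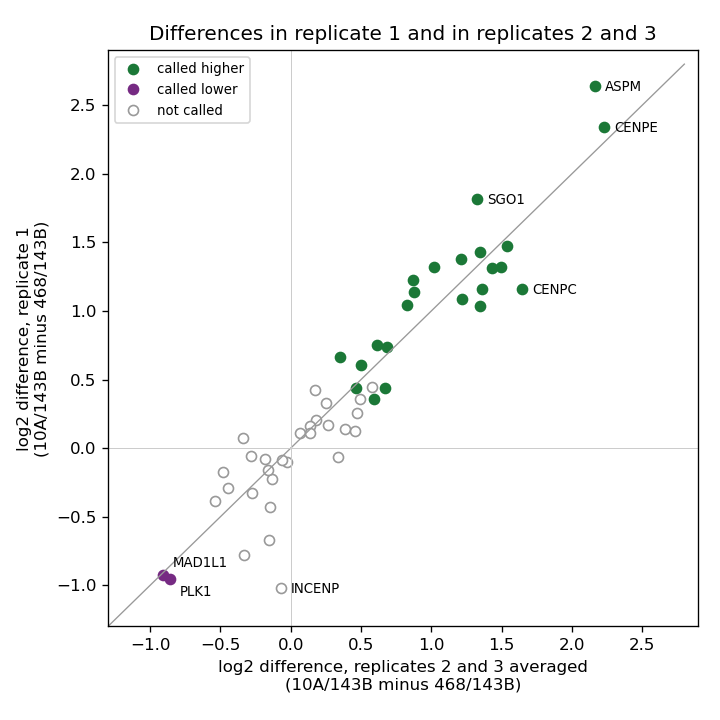
Log2 difference (10A/143B minus 468/143B) of each gene in replicates 2 and 3 averaged (horizontal) and in replicate 1 (vertical), with the line of equal values. Points lie along the line, and only CENPB and ESPL1 change sign; INCENP differs most, with -1.02 in replicate 1 and -0.07 in replicates 2 and 3.

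Of the 12 genes of the inner kinetochore, 5 were called higher and the other 7 were not called (median 0.35, range -0.55 to 1.40). CENPC, which links CENPA chromatin to the outer kinetochore, had intensities of 104, 142 and 136 in 10A/143B, against 37.8, 35.3 and 32 in 468/143B. The groups were well apart, and the gene was 2.64-fold higher in 10A/143B (1.40 ± 0.25, adjusted p = 0.00906). Its 468/143B values were not far above the arrays' median intensities of 20.3 to 24.4 and, without detection calls, may hold background, as may those of CENPE. CENPU, a subunit of the inner kinetochore's CENP-O group that binds PLK1, had 2179.8, 1938 and 1978 in 10A/143B, against 798, 781 and 739 in 468/143B. It was 2.62-fold higher (1.39 ± 0.11, adjusted p = 8.60e-04), and its other probe sets gave 2.18 ± 0.23 and 1.69 ± 0.23. CENPI, which helps to load CENPA, had 147, 148 and 151 in 10A/143B, against 58.1, 79.9 and 68.6 in 468/143B (1.01 ± 0.21, adjusted p = 0.0179). Its arrays did not overlap, and a second probe set gave 1.02 ± 0.24, while 2 dim ones, with 0.43 ± 0.22 and 0.14 ± 0.16, were not called.

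CENPL and its partner CENPN, which together recognise the CENPA nucleosome, gave unlike values, a difference that was not tested. CENPL had 1024, 1243 and 1193 in 10A/143B, against 488, 666 and 689.8 in 468/143B (0.94 ± 0.18, adjusted p = 0.0111) on its highest probe set, whose suffix (_x_at) marks probes that may cross-hybridise. Its other probe set read 148, 152 and 158 in 10A/143B, against 311, 315 and 247 in 468/143B. That is a difference the opposite way (-0.89 ± 0.16, adjusted p = 0.0101), so CENPL has no settled direction. CENPN differed by -0.17 ± 0.12 (adjusted p = 0.451). CENPK, of the group that bridges to the NDC80 complex, passed narrowly (0.48 ± 0.13, adjusted p = 0.0434), with 714, 771 and 776 in 10A/143B, against 553, 519 and 498 in 468/143B. After quantile normalization it was not called (adjusted p = 0.0842), and over all alternatives it had adjusted p from 0.00105 to 0.165.

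CENPA itself, the histone that marks the centromere, read 292, 357 and 365 in 10A/143B, against 512, 468 and 449 in 468/143B. Every 10A/143B array lay below every 468/143B array, but the difference of -0.55 ± 0.16 missed the threshold (adjusted p = 0.0549). With the replicate block it passed (adjusted p = 0.026), and the alternatives gave adjusted p from 0.009 to 0.311. CENPH, a partner of CENPI and CENPK, differed by -0.41 ± 0.16 (adjusted p = 0.132), again without overlap. CENPQ (0.51 ± 0.19, adjusted p = 0.123) and CENPO (-0.46 ± 0.26, adjusted p = 0.322), subunits of the same group as CENPU, were not called. Nor were CENPM (0.22 ± 0.14) and CENPB (0.13 ± 0.19), the protein that binds a short motif of centromeric satellite DNA.

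**Figure D3:**
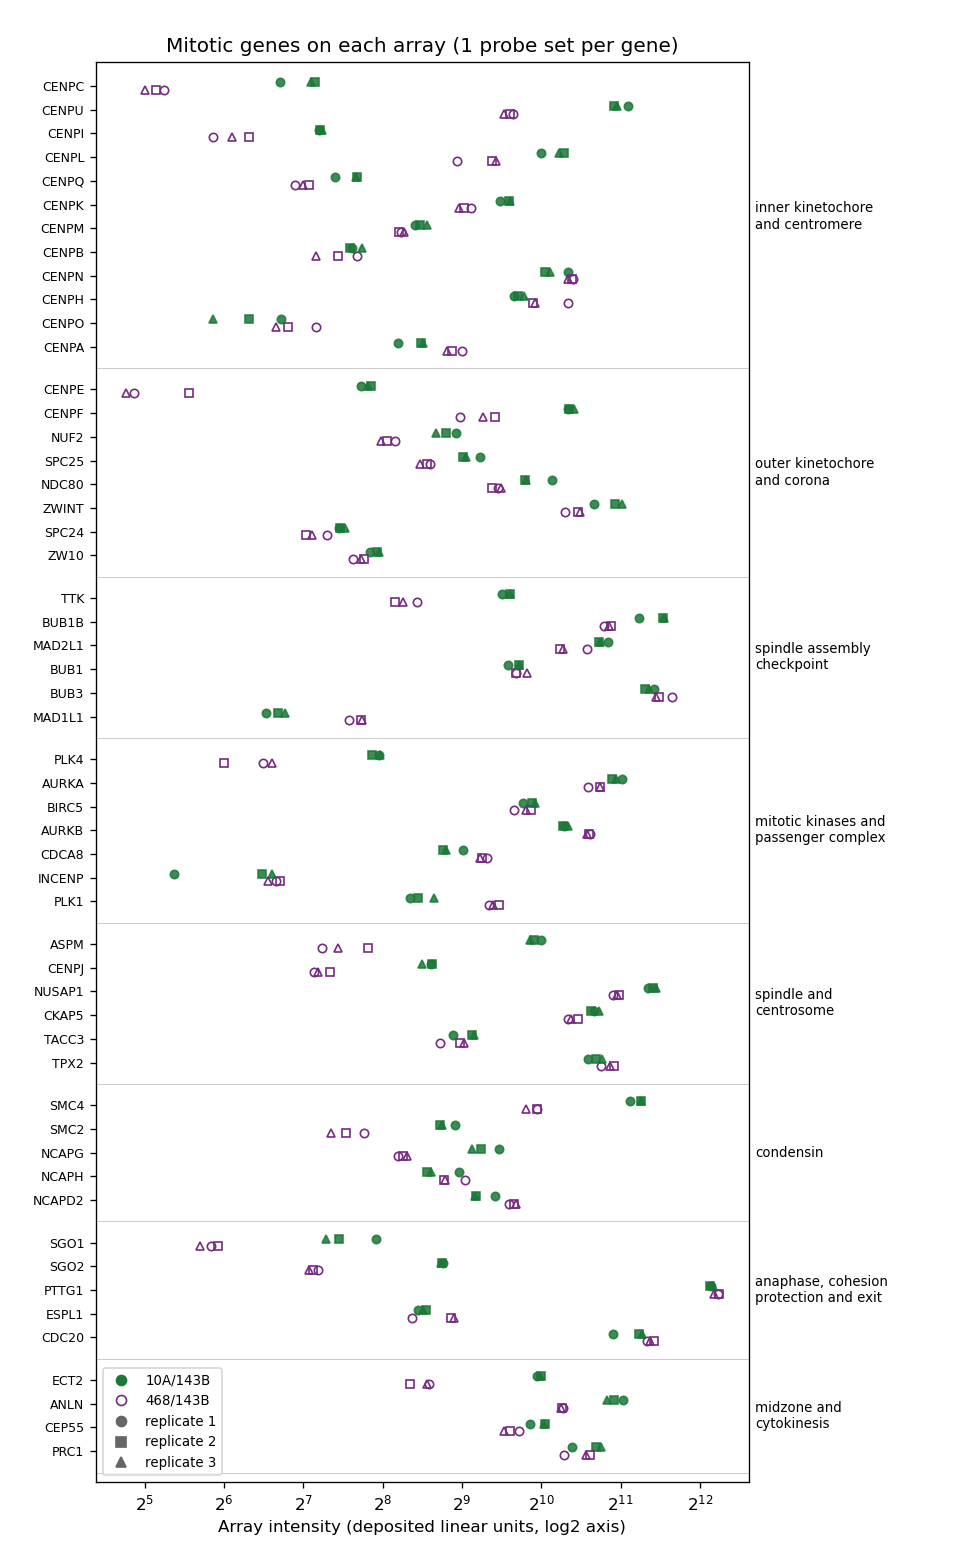
Intensity of each of the 53 genes on each array (log2 axis, 1 probe set per gene), with filled green symbols for 10A/143B, open purple symbols for 468/143B and symbol shape for the replicate. CENPE, ASPM, CENPU and ECT2 have widely separated groups, while BUB1, BIRC5 and PRC1 overlap.

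All 8 genes of the outer kinetochore and its corona were on the higher side in 10A/143B, and the arrays of the groups did not overlap for any of them, against 24.2% of all genes higher without overlap. Of the 8, 5 were called higher (median 0.53), against 12.4% of all genes and 23.6% of those at or above the level of the dimmest mitotic gene. CENPE, the kinesin that carries chromosomes to the spindle equator, had 212, 231 and 226 in 10A/143B, against 29, 47.2 and 27.1 in 468/143B. The groups were far apart, with a fitted fold of 4.87 (2.28 ± 0.22, adjusted p = 0.00122). CENPF, a large corona protein that binds microtubules and dynein regulators, had 1287, 1305 and 1361 in 10A/143B, against 505, 680.3 and 617 in 468/143B (1.17 ± 0.14, adjusted p = 0.00241). Its second probe set gave 1.46 ± 0.16, and the dimmest one, the only one without an _s_at suffix, was not called (1.04 ± 0.31, adjusted p = 0.0615).

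Of the 4 subunits of the NDC80 complex, which makes the main contact with microtubules, NUF2, SPC25 and NDC80 were called higher. NUF2 had 484, 446 and 407 in 10A/143B, against 284, 265 and 252 in 468/143B (0.71 ± 0.15, adjusted p = 0.017), and SPC25 596, 516 and 530.1 in 10A/143B, against 385, 377 and 355 in 468/143B (0.55 ± 0.14, adjusted p = 0.0343). SPC25 was not called after quantile normalization (adjusted p = 0.0655), and the alternatives gave adjusted p from 0.00171 to 0.16. NDC80 passed at the threshold (0.51 ± 0.14, adjusted p = 0.0494), its call held in none of the 6 leave-outs, and over the alternatives it had adjusted p from 0.00647 to 0.242. SPC24 differed by 0.26 ± 0.18 (adjusted p = 0.43). ZWINT, which ties the ROD, ZW10 and ZWILCH complex to the kinetochore, differed by 0.43 ± 0.14 (adjusted p = 0.081, but 0.011 with the replicate block, and adjusted p from 0.00133 to 0.438 over all alternatives). ZW10, which brings in dynein, differed by 0.19 ± 0.16 (adjusted p = 0.528).

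The spindle assembly checkpoint was split, with 2 of 6 genes called higher, 1 lower and 3 not called (median 0.15). As shares these are 33.3% and 16.7%, against 23.6% and 15.1% of genes at or above the level of the dimmest mitotic gene. TTK, the kinase also known as MPS1 that starts checkpoint signalling, had 724, 776 and 781 in 10A/143B, against 345, 286 and 307 in 468/143B. It was 2.29-fold higher in 10A/143B (1.19 ± 0.14, adjusted p = 0.00212). BUB1B, which encodes the CDC20 inhibitor BubR1, had 2402, 2957 and 2998 in 10A/143B, against 1771, 1885 and 1846 in 468/143B (0.55 ± 0.13, adjusted p = 0.0231). MAD1L1, which carries MAD2 to kinetochores that lack microtubules, moved the other way. Its intensities were 92.4, 103 and 109 in 10A/143B, against 190.0, 212 and 214 in 468/143B, a difference of -0.92 ± 0.19 (adjusted p = 0.0157, 1.89-fold lower). MAD2L1, the inhibitor that MAD1 carries, differed by 0.36 ± 0.13 on its highest probe set (adjusted p = 0.122, but 0.0276 with the replicate block, and adjusted p from 0.00361 to 0.398 over all alternatives). Its dimmest probe set was called higher, with 326, 355 and 372 in 10A/143B, against 175, 165 and 177 in 468/143B (0.93 ± 0.16, adjusted p = 0.00727). The third was not called (0.33 ± 0.19, adjusted p = 0.345), and its arrays overlapped. BUB1, the kinase that marks the inner centromere, differed by -0.06 ± 0.12 (adjusted p = 0.801), and BUB3, which brings BUB1 and BubR1 to kinetochores, by -0.18 ± 0.11 (adjusted p = 0.338). None of the 5 probe sets of BUB1 and the 6 of BUB3 was called.

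Mitotic kinases and the chromosomal passenger complex had a median of -0.30, with 1 of 7 called higher and 1 lower (14.3% each). Of all genes, 12.4% were called higher and 7.48% lower. At or above the level of the dimmest mitotic gene these shares were 23.6% and 15.1%, so the counts of this role did not exceed them. PLK1, the polo-like kinase of mitotic entry, spindle poles and cytokinesis, had 326, 347 and 402 in 10A/143B, against 648, 709 and 671 in 468/143B. It was 1.87-fold lower in 10A/143B (-0.91 ± 0.14, adjusted p = 0.00492). PLK4, the polo-like kinase that licenses centriole duplication, had 247, 232 and 251 in 10A/143B, against 89.9, 64 and 97.7 in 468/143B. It was 2.59-fold higher (1.37 ± 0.18, adjusted p = 0.00301), and its next probe set gave 1.82 ± 0.22 (adjusted p = 0.00213). The dimmest, with 0.83 ± 0.42, was not called. The 2 polo-like kinases thus differed in opposite directions, each with groups that did not overlap.

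AURKA, the Aurora kinase of centrosomes and spindle poles, differed by 0.30 ± 0.11 (adjusted p = 0.118) and AURKB, the kinase of the passenger complex, by -0.30 ± 0.10 (adjusted p = 0.0992). Neither was called, although the arrays of both were apart. AURKB was called lower after quantile normalization (adjusted p = 0.0442), with adjusted p from 0.00475 to 0.704 over the alternatives. The passenger complex subunits CDCA8 (-0.37 ± 0.14, adjusted p = 0.128) and INCENP (-0.55 ± 0.32, adjusted p = 0.348) were not called either. BIRC5, the subunit survivin, differed by 0.09 ± 0.12 on its highest probe set, whereas the next in level was called lower, with 108, 109 and 118 in 10A/143B, against 197, 207 and 189 in 468/143B (-0.75 ± 0.18, adjusted p = 0.0273). Its other probe sets gave -0.08 ± 0.26 (adjusted p = 0.898) and -0.23 ± 0.24 (adjusted p = 0.613). BIRC5 therefore has no settled direction.

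Of 6 spindle and centrosome genes, 3 were called higher and 3 were not called (median 0.37). ASPM, which focuses microtubules at spindle poles, had 1024, 962 and 923 in 10A/143B, against 151, 226 and 174 in 468/143B on its highest probe set (2.40 ± 0.16, adjusted p = 6.65e-04). A dimmer probe set was called lower, with 132, 105 and 101 in 10A/143B, against 224, 269 and 232 in 468/143B (-0.93 ± 0.19, adjusted p = 0.0159), and the dimmest gave 1.02 ± 0.44. The direction of ASPM thus depends on the probe set. CENPJ, which despite its name is a centriole elongation factor, had 391, 393 and 359.5 in 10A/143B, against 140.1, 161 and 146 in 468/143B (1.30 ± 0.16, adjusted p = 0.0023). Its other probe sets gave 0.70 ± 0.23, which was not called, and 1.19 ± 0.29. NUSAP1, which bundles spindle microtubules, had 2592, 2721 and 2798 in 10A/143B, against 1911, 2019.8 and 1978 in 468/143B (0.45 ± 0.10, adjusted p = 0.0206), but -0.21 ± 0.19 on its other probe set. The microtubule polymerase CKAP5 (0.29 ± 0.10, adjusted p = 0.115), its partner TACC3 (0.15 ± 0.16) and TPX2, the activator of Aurora A (-0.16 ± 0.11), were not called.

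Condensin was divided by subunit. The ATPase core was higher in 10A/143B: SMC4 had 2226, 2436 and 2452 in 10A/143B, against 989, 989 and 898 in 468/143B (1.26 ± 0.11, adjusted p = 9.85e-04), and SMC2 had 481, 422 and 431 in 10A/143B, against 218, 186 and 163 in 468/143B (1.15 ± 0.17, adjusted p = 0.0043). All 3 probe sets of SMC4 and both of SMC2 were called higher, between 1.10 and 1.26. Of the regulatory subunits, NCAPG had 704, 605 and 556 in 10A/143B, against 292, 304 and 317 in 468/143B (1.05 ± 0.15, adjusted p = 0.0039), with 1.33 ± 0.24 on its other probe set. NCAPD2 (-0.33 ± 0.13, adjusted p = 0.159) and NCAPH (-0.13 ± 0.17, adjusted p = 0.705), which belong to the same complex, were not called.

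Both shugoshins, which protect centromeric cohesin, were called higher on their highest probe sets but not on their other ones. The other 3 genes of anaphase were not called. SGO1 had 241, 175 and 155 in 10A/143B, against 56.9, 60.5 and 52 in 468/143B (1.57 ± 0.24, adjusted p = 0.00457), while its dimmer probe set gave -0.62 ± 0.24 (adjusted p = 0.147). SGO2 had 434, 431 and 425 in 10A/143B, against 146, 139 and 134 in 468/143B (1.51 ± 0.15, adjusted p = 0.00143). A second probe set of SGO2 read 256, 171 and 164 in 10A/143B, against 58.5, 304 and 302 in 468/143B, so that 10A/143B was above 468/143B in replicate 1 and below it in replicates 2 and 3. Over the alternatives SGO1 had adjusted p from 2.36e-04 to 0.102 and SGO2 from 1.15e-05 to 0.0809. CDC20, the activator that the checkpoint holds back, differed by -0.29 ± 0.13 (adjusted p = 0.214). Securin, encoded by PTTG1, differed by -0.07 ± 0.09 and separase, encoded by ESPL1, by -0.13 ± 0.19.

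Of the 4 genes of the spindle midzone and cytokinesis, ECT2 and ANLN were called higher. ECT2, the exchange factor that activates RhoA at the cleavage site, had 982, 1024 and 1009.9 in 10A/143B, against 383, 326 and 377 in 468/143B. It was 2.65-fold higher (1.41 ± 0.13, adjusted p = 0.00107), and a second probe set gave 1.38 ± 0.31. The third and dimmest, the only one without an _s_at or _x_at suffix, was not called (0.32 ± 0.23, adjusted p = 0.445), so that the call of ECT2 was lost where such probe sets were dropped (adjusted p = 0.494, the highest of its alternatives, with 1.13e-05 the lowest). ANLN, the scaffold anillin of the contractile ring, had 2091, 1938 and 1820.3 in 10A/143B, against 1235, 1226 and 1218 in 468/143B (0.68 ± 0.11, adjusted p = 0.00569), with 0.98 ± 0.13 on its other probe set. CEP55, which recruits the abscission machinery, differed by 0.29 ± 0.13 (adjusted p = 0.19) and PRC1, which crosslinks midzone microtubules, by 0.12 ± 0.15.

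Probe sets of the same gene were compared with one another. Of the 101 probe sets, 36 were called higher and 5 lower, against 17.4% of all single-symbol probe sets in either direction. These counts include the highest probe set of each of the 53 genes, of which 23 were called higher and 2 lower, so they are no separate check. Of 26 genes with more than 1 probe set, 15 had the same sign on all of them, and 10 had at least 2 probe sets called in the same direction and none the other way. ASPM and CENPL had probe sets called in both directions. For MAD2L1 and BIRC5 only a probe set other than the highest was called.

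**Figure D4:**
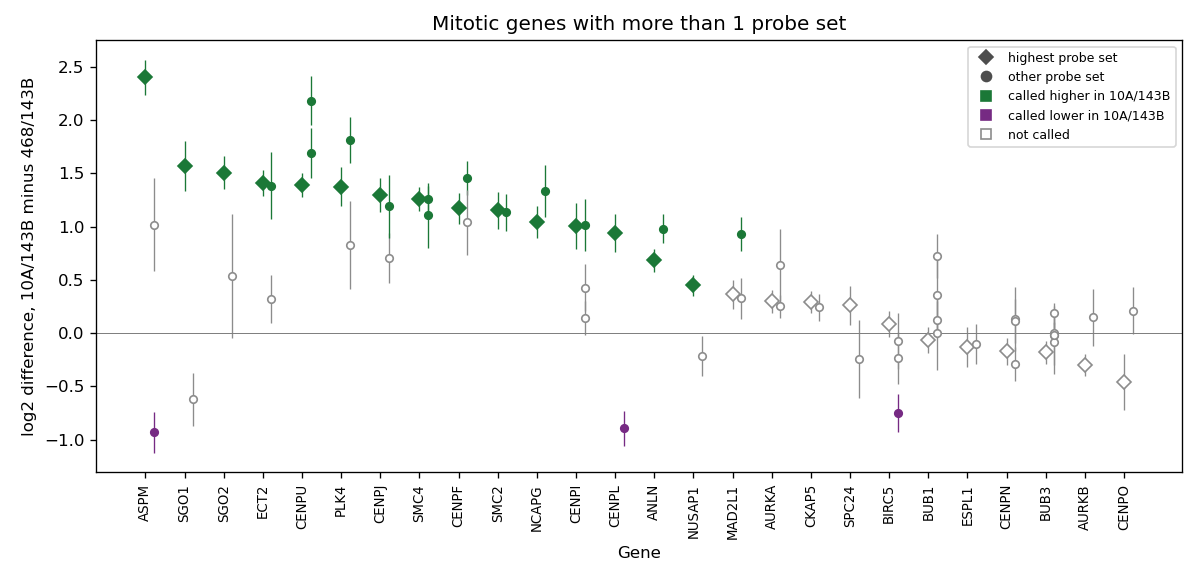
Log2 difference (10A/143B minus 468/143B, bars of 1 SE) of every probe set of the 26 genes with more than 1, with a diamond for the highest probe set and circles for the others, coloured by call. CENPU, PLK4, CENPF, SMC4, SMC2 and NCAPG agree across probe sets in sign, whereas ASPM runs from -0.93 to 2.40 and CENPL from -0.89 to 0.94.

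Chromosome and gene length moved with these differences, and their part in them was not tested. The 7 genes CENPC, CENPE, CENPU, MAD2L1, NCAPG, PLK4 and TACC3 lie on chromosome 4, where 24.8% of 793 genes were called higher and 0.883% lower. Of the 7, 5 were called higher and 0 lower (median 1.37). Of the 46 on other chromosomes, 18 (39.1%) were called higher and 2 (4.35%) lower (median 0.28). Over all genes, those of chromosome 4 included, 12.4% were called higher and 7.48% lower. With the median of each chromosome taken off, 22 of the 53 genes were called higher and 3 lower, against 2454 and 1323 of all 19775 genes. RefSeq gene lengths ran from 2890.0 to 417151 bases. Of the 27 longer genes, 19 were called higher and 1 lower (median 0.71), and of the 26 shorter genes 4 and 1 (median 0.10). How many of all genes of such lengths were called was not counted, so this split cannot be set against theirs. Across the 53 genes, which are not independent replicates, Spearman's rho of difference with length was 0.47, and it was 0.24 across 19735 genes with a length. PLK1, AURKB, CDC20 and CENPA were short, with lengths of 11479, 5845, 4223 and 8534 bases, while MAD1L1, which was lower, was the longest. With the length trend of all genes removed, 22 of the 53 genes were called higher and 2 lower, against 2303 and 1387 of all 19775 genes.

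**Figure D5:**
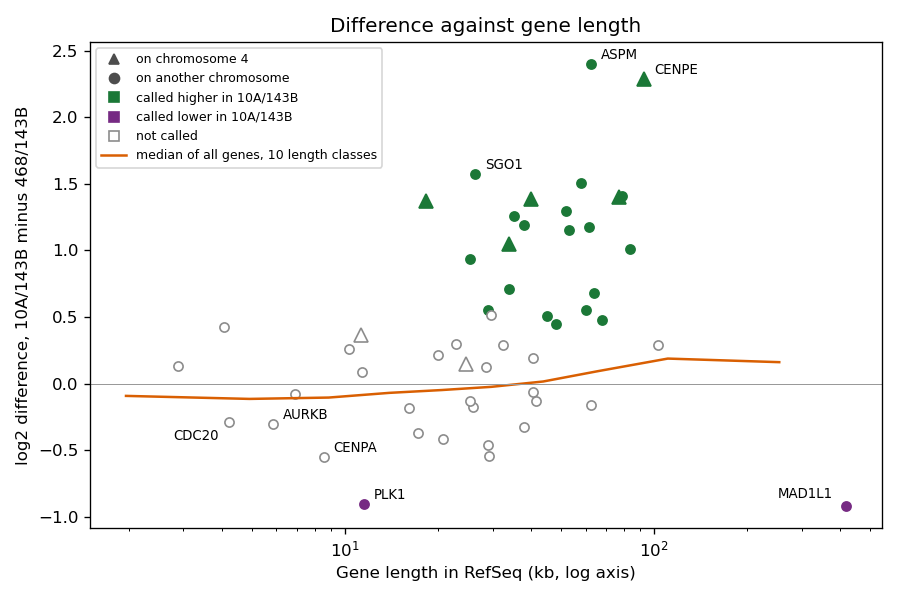
Log2 difference (10A/143B minus 468/143B) of each gene against its RefSeq length (log axis), with triangles for genes on chromosome 4, colour by call and a line for the median of all genes in 10 length classes. Genes called higher lie mostly at the longer lengths, and the line rises from -0.09 in the shortest class to 0.19 and 0.16 in the longest ones.

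Promoters of mitotic genes often carry a cell cycle element called CHR, bound by the MuvB complexes that repress or activate these genes, together with CCAAT boxes bound by NF-Y. RefSeq promoter windows (GRCh38.p14, 250 bases before to 50 after the start) matched 45 of the 53 genes. Only the first listed window of each gene was used, so a motif at any other start site of a gene would be missed. TTTGAA or TTCGAA, the CHR letters, occurred on either strand in 31 of the 45 windows (68.9%), against 16.6% of the windows of 27305 genes. These are all genes with a window, including ones not measured on the array. CCAAT occurred on either strand in 30 (66.7%) against 35.7%, and both motifs in 22 (48.9%) against 6.58%. Matches may overlap one another. CHR letters were in 15 of 21 windows of genes called higher, 1 of 2 of genes called lower and 15 of 22 of genes not called. CCAAT was in 10 of 21, 1 of 2 and 19 of 22 of these windows.

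The windows of 5 genes are shown because they pair genes that were higher and lower with and without these letters, in capitals. ECT2 (chr3:172750476-172750775, plus strand) and NCAPG (chr4:17810729-17811028, plus strand) were higher and hold CHR letters, and CENPE (chr4:103198294-103198593, minus strand) was higher and holds neither motif. PLK1 (chr16:23678639-23678938, plus strand) was lower and holds both, and MAD1L1 (chr7:2232896-2233195, minus strand) was lower and holds neither.
ECT2: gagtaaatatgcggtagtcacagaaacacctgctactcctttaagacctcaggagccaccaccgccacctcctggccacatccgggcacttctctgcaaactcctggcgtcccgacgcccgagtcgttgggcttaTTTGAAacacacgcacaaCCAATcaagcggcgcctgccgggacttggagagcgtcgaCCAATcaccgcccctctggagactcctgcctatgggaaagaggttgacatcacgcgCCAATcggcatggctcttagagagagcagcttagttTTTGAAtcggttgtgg
NCAPG: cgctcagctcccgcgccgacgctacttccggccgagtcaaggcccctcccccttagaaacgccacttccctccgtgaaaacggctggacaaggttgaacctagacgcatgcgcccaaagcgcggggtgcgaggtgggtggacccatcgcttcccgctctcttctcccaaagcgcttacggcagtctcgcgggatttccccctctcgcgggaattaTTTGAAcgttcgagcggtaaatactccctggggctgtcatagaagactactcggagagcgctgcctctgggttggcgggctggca
CENPE: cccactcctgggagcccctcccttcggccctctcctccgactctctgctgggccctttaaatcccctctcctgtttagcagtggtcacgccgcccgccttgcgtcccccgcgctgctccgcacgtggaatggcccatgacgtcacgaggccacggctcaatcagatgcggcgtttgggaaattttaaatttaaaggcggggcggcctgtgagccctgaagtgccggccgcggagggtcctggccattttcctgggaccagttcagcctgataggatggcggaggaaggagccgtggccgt
PLK1: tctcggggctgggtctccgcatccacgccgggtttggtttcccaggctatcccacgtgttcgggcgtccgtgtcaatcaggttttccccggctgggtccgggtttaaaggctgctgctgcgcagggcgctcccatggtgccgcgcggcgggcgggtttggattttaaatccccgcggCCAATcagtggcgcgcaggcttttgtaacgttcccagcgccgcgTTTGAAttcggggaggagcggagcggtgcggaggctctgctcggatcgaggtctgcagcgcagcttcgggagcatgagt
MAD1L1: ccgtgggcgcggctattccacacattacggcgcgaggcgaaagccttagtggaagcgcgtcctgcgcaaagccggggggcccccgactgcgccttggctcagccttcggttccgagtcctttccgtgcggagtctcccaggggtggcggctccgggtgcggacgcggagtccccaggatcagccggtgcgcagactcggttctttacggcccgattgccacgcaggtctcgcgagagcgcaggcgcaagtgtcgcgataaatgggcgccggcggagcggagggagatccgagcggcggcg
In PLK1 the CCAAT box spans positions -73 to -69 and the CHR letters -29 to -24 from the start. NCAPG has CHR letters at -35 to -30, and ECT2 at -115 to -110 and 35 to 40, with a CCAAT box at -97 to -93, -58 to -54 and -2 to 3. A match is a run of letters and no shown binding site, and both directions of change occurred with and without it.

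Other mitotic genes gave the setting. Cohesin and its regulators, which hold sister chromatids together, had 9 of 13 genes called higher and 1 lower (median 0.96), with PDS5A (1.96 ± 0.14), STAG1 (1.83 ± 0.15) and NIPBL (1.46 ± 0.20) the largest of those called. Of 14 measured genes of augmin and the gamma-tubulin complex, which nucleate spindle microtubules, 5 were called higher and 2 lower (median 0.19). HAUS6 (2.13 ± 0.15), HAUS3 (1.26 ± 0.20) and TUBGCP3 (1.21 ± 0.16) led this list. Further checkpoint genes had 4 of 6 called higher (median 0.79), among them ZWILCH (1.17 ± 0.14), TPR (0.89 ± 0.12) and KNTC1 (0.86 ± 0.17). Among 15 other kinetochore assembly genes, 3 were called higher and 1 lower (median 0.18). KNL1, the scaffold that the checkpoint kinases phosphorylate, differed by 1.25 ± 0.13, DSN1 by 0.76 ± 0.17 and PMF1 by -0.69 ± 0.13. Condensin genes outside the list gave 1 of 3 called higher (NCAPG2, 1.00 ± 0.15), but their median was -0.39. NCAPH2 (-0.52 ± 0.18, adjusted p = 0.108) and NCAPD3 (-0.39 ± 0.13, adjusted p = 0.0897) were on the lower side without overlap and were not called.

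Of 17 genes of the anaphase-promoting complex and its partners, 5 were called higher and 3 lower (median 0.03), with ANAPC4 (1.15 ± 0.18), CDC16 (1.08 ± 0.13) and CDC27 (1.06 ± 0.13) the largest of those called. Of 17 genes of mitotic entry, 3 were called higher and 1 lower (median 0.08). PKMYT1 (-0.77 ± 0.17), ARPP19 (0.59 ± 0.10) and CDK1 (0.50 ± 0.10) were the largest of those called. Of 14 regulators of transcription late in the cell cycle, 2 were called higher and 1 lower (median -0.11): RBL1 (1.52 ± 0.31) and LIN9 (1.24 ± 0.22), against LIN37 (-0.65 ± 0.18). Of 10 measured genes listed under cytokinesis and abscission, 2 were called higher and 2 lower (median -0.11). The largest of those called were PLK2 (-3.02 ± 0.26), VPS4B (0.97 ± 0.16) and VPS4A (-0.94 ± 0.16). PLK2 is a polo-like kinase that was put on this list but is not known as a cytokinesis gene, so its value is no result about cytokinesis. Of 11 proliferation markers, 2 were called higher and 1 lower (median -0.06), with MKI67 at 0.90 ± 0.14, TOP2A at 0.46 ± 0.12 and MCM5 at -0.68 ± 0.12. The counts of all these other lists stand beside the 12.4% of all genes called higher and 7.48% called lower. Among genes at or above the level of the dimmest mitotic gene, 23.6% were called higher and 15.1% lower. Several of the lists, such as mitotic entry, late transcription and proliferation markers, did not exceed these larger shares in either direction.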

How the data were processed

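RNA of 3 arrays of 10A/143B and 3 of 468/143B had been hybridised to an Affymetrix array. The authors deposited linear intensities, with 1 value for each probe set on each array. How the authors summarised probes, corrected background or scaled arrays is not given in the sources used here, and no detection calls were used. Samples were grouped and numbered by source name.

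Values were used as deposited, as log2(intensity + 16), without further scaling. Replicates 2 and 3 of each group were averaged. limma 3.58.1 in R 4.3.3 (lmFit, eBayes with an intensity trend) was fitted over 54613 probe sets, without 62 controls, and p-values were adjusted over all of them at 0.05. Symbols came from the platform's probe table and were updated through Entrez identifiers to RefSeq of GRCh38.p14 (41037 of 41091 single-symbol probe sets matched). For each gene the single-symbol probe set brightest on average across the 6 arrays was taken. The number of arrays limits the precision.

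Same-numbered arrays of the groups deviated together from their group means, with correlations of 0.28, 0.23 and 0.22 for numbers 1, 2 and 3. Arrays 2 and 3 gave much the same across unlike numbers (0.26 and 0.21). Deviations from a mean of the same 3 arrays depend on one another, so these values show only replicate 1 apart from the others in both groups. The number was also fitted as a block. The fit was tested on simulated data with known changes in probe sets at or above the median level. It recovered 100% of log2 changes of 2 but 58% of those of 1. There were also 27 false calls, and their share among all calls was above the nominal level of the adjustment. The simulation held only 100 changed probe sets of each size, whereas 17.4% of single-symbol probe sets were called in the data. The adjustment depends on how many probe sets change, so neither share can be carried over to the data. A gene not called may still differ, and single calls near the threshold may be less secure than their adjusted p states.

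Members, gene lists and tests were chosen with earlier results of these data known. Intensities are given array by array for up to 4 called genes of each role with the largest differences (the 2 smallest p where under 2 were called), and up to 3 called genes are named from each other list. Further arrays and probe sets were printed where a call depended on them, chosen after their values were seen.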

Additional observations from a re-analysis of the deposited data

How the results depend on the processing

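Most results kept their direction and their side of the threshold: of the values of single genes under the alternatives, 938 did, 63 kept the direction but were no longer called, 38 became called and 12 changed sign. Arrays counted as 6 separate samples gave 6 mitotic genes lower, a median of 0.35 and 3773 genes higher and 2932 lower of all; with the replicate block on 6 arrays these were 9, 0.35, 3980 and 3246. With the replicate block on the averaged samples 2246 of all genes were lower, against 1479 without it. Leaving out 1 array at a time gave 9 to 22 mitotic genes higher, 0 to 2 lower and medians of 0.29 to 0.36, with 730 to 2399 of all genes higher and 301 to 1422 lower. Scaling moved the balance: quantile normalization gave 4 mitotic genes lower and a median of 0.23, and median centring 4 and 0.21, with 2106 of all genes higher and 2034 lower after the first and 2130 and 1915 after the second, against 2450 and 1479 as deposited. The median of all genes fell as well, to -0.08 after the first and -0.11 after the second, against -0.02 as deposited. Without the intensity trend 15 mitotic genes were higher, and 866 of all genes lower. The median was 0.37 with chromosome medians taken off and 0.36 with the length trend removed. Without _x_at and _s_at probe sets 44 genes remained, with 5 lower and a median of 0.39. Signs changed for BUB1 (0.0049, leave-outs from -0.098) without 10A/143B replicate 1, PRC1 (-0.030, leave-outs up to 0.28) without 468/143B replicate 1, CENPB (-0.022) after quantile normalization, BIRC5 (-0.0040) after median centring, CENPN (0.042) and TACC3 (-0.010) with chromosome medians taken off, PTTG1 (0.051) with the length trend removed, and BUB1 (0.23) and BIRC5 (-0.24) with the mean of probe sets. Without _x_at and _s_at probe sets they changed for CENPL (-0.89, adjusted p = 0.00705), BIRC5 (-0.75, adjusted p = 0.0210) and ASPM (-0.93, adjusted p = 0.0116). Causes were not tested, except that fewer samples or probe sets enter some settings.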
